A study of Mus musculus with 4 samples.

Results

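Transcripts of acute-phase and mucosal defence proteins, Lrg1, Serpina3n, Sftpd, Cd14, Dmbt1 and Lyz1, were described in the pyloric stomach of mice with and without the Hippo kinases LATS1 and LATS2 in Lgr5-positive cells and their progeny. These 6 are among the 2701 rows of the authors' deposited table and were taken by name, matched from Ensembl identifiers to GENCODE M21 symbols. Every row of that table has an adjusted p of at most 0.05 for this same comparison, and the 6 were picked with its values known. By the authors' p-values, about 20.6% of the genes they tested have a row. A gene without a row may have missed that threshold or not been tested, so its level is unknown and a missing row does not show absence. Their difference between genotypes is therefore a description and was not tested here.

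RNA was read from 4 libraries of C57BL/6 stomach, 2 per genotype, all from mice 8 weeks after tamoxifen. WT mice were Lats1fl/fl;Lats2fl/fl and carried no Cre. The Lats1/2 KO mice (Lats1/2iΔLgr5 in the labels) were Lats1fl/fl;Lats2fl/fl;Lgr5-CreER, so both groups shared the floxed alleles, and the CreER allele was carried by the Lats1/2 KO mice alone. Cre in this line is switched on by tamoxifen in cells that express Lgr5, the stem cells of the gland base, and no source used here gives age, sex or whether a library was 1 animal. The label names pyloric epithelium, but the RNA came from 10 µm cryosections of the frozen stomach wall, which hold all cells of the cut tissue. In such bulk RNA, fewer cells of a type and less RNA per cell cannot be told apart.

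The listed genes held between 13413629 and 17689207 counts per library. Levels below are normalized counts, that is, counts divided by the authors' own size factors, which put the 4 libraries on 1 scale, and a pair of values is in the order replicate 1, replicate 2. Lats1 was at 2152 and 1974 normalized counts for WT and at 942.5 and 1129 for Lats1/2 KO, lower in both as labelled. Lats2 had no row, so its level is unknown. Of 10 markers of surface mucous cells, a part of the gastric epithelium, 9 had a row. They took 26.1% and 25.7% of listed counts for WT against 21.2% and 19.0% for Lats1/2 KO. In normalized counts, the scale used for the 6 genes, the 9 markers summed to 4.71e+06 and 5.01e+06 for WT and 2.57e+06 and 2.11e+06 for Lats1/2 KO, and each was lower in Lats1/2 KO, from 1.61-fold for Ctse to 2.37-fold for Fer1l6. Ctse, Vsig1 and Muc5ac, all named after their values were seen, did not pass edgeR's test on a scale set by TMM, computed from the rows of the table (adjusted p = 0.0903, 0.139 and 0.196). That scale moves fold changes upward and so works against falls, here and wherever it is named below. The part of the markers' fall in the levels of the 6 genes was not tested.

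Mucosal surfaces are guarded by secreted proteins that bind, block or digest microbes and by receptors that report them. Acute-phase proteins are made in quantity during inflammation, mostly by the liver but also by epithelia, and much of their transcription is driven by interleukin-6 through STAT3 and by NF-kappaB. Collectins, scavenger receptor cysteine-rich proteins and lysozymes act in the mucus layer, and CD14 passes bacterial lipopolysaccharide (LPS) to the receptor TLR4 and its partner MD-2.

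All 6 genes were higher in both Lats1/2 KO libraries than in either WT library. The table as a whole has that pattern in 42.9% of its rows. These are all of the 1158 rows with a higher mean in Lats1/2 KO, so the pattern comes with being a higher row of this table. Because the rule used this contrast, nothing is read from the count. The mean was at least 2-fold higher in Lats1/2 KO for 5 of the 6 and for 24.7% of rows. The fold of the group means was 13.4 for Lrg1, 7.59 for Sftpd, 7.37 for Serpina3n, 3.71 for Lyz1, 2.42 for Cd14 and 1.91 for Dmbt1. By the log2 fold change in the authors' deposited table, Lrg1, Sftpd and Serpina3n ranked 6, 13 and 16 among all 2701 rows, and Lyz1, Cd14 and Dmbt1 ranked 167, 343 and 729. Those deposited values lie below the log2 ratio of group means, at 3.18 against 3.74 for Lrg1 and 1.44 against 1.89 for Lyz1. Asz1, named after its values were seen, had 2 and 0 counts for WT and a 129-fold higher mean in Lats1/2 KO, but a deposited value of 2.85. The ranks are therefore not those of the folds of group means.

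**Figure D1:**
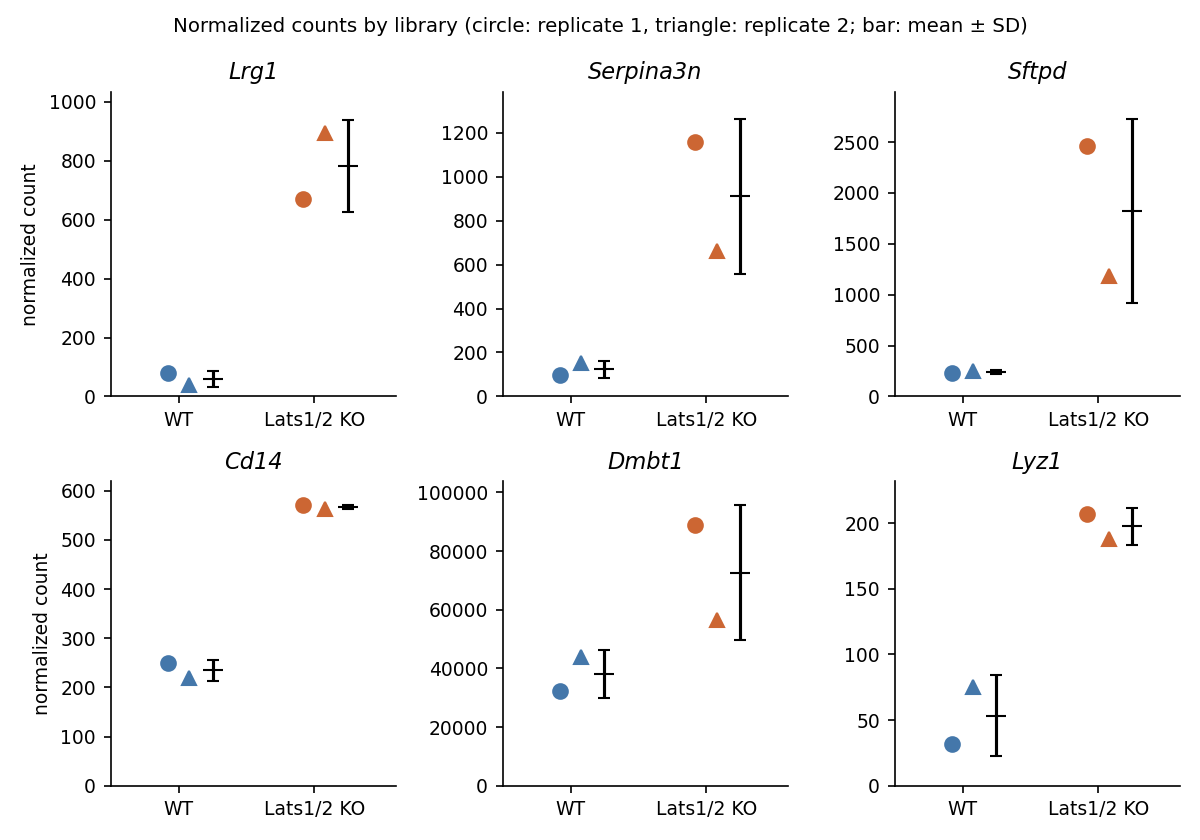
Normalized counts of the 6 genes (vertical axes, linear, from 0) in WT and Lats1/2 KO; circles are replicate 1, triangles replicate 2, and black bars the mean ± SD of 2 libraries. The groups do not overlap for any gene, which holds for all 1158 rows of the table with a higher mean in Lats1/2 KO. The Lats1/2 KO libraries lie far apart for Sftpd (2459 and 1180.2) and almost coincide for Cd14 (570.4 and 563.5).

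Lrg1 encodes leucine-rich alpha-2-glycoprotein, a secreted acute-phase protein that modulates TGF-beta signalling in blood vessels. The gene (ENSMUSG00000037095) lies on chromosome 17 at 56119678 to 56122001, minus strand, in GRCm38. It had 62 and 35 counts for WT and 742 and 1143 for Lats1/2 KO, which are 78.2, 38.6, 671.8 and 893.3 normalized counts. Both Lats1/2 KO libraries were thus far above WT, with the lower of them 8.59 times the higher WT library. The means were 58.4 ± 28.0 and 782.6 ± 157 (SD, n = 2), or 3.75 ± 0.40 (SE) as a log2 fold change. Within WT the libraries differed 2.03-fold, and without WT replicate 1 the log2 fold change was 4.34, a fold of 20.2.

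Serpina3n encodes a secreted serine protease inhibitor of the alpha-1-antichymotrypsin group. The gene (ENSMUSG00000021091) lies on chromosome 12 at 104406729 to 104414329, plus strand. Its normalized counts were 95.9 and 151.1 for WT and 1158 and 662.0 for Lats1/2 KO. Lats1/2 KO 1 was the higher Lats1/2 KO library here, the reverse of Lrg1. The means were 123.5 ± 39.0 and 910.01 ± 351 (SD, n = 2), or 2.88 ± 0.39 (SE) as a log2 fold change.

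Promoter sequences of RefSeq (GRCm38.p6) matched 3 of the 6 genes, Lrg1, Serpina3n and Lyz1, and are shown because these genes were higher together. Each runs 5′ to 3′ toward the transcription start. Capitals mark a match, on either strand, to one of 4 motifs searched in the 250 bases before the start: TTCNNNGAA (bound by STAT factors), TTGCNNAA (C/EBP), GGNNTTTCC (NF-kappaB) and GGAATG (TEAD). For Lrg1 the 55 bases nearest the RefSeq start, which GENCODE M21 places inside the gene, are left off.
Lrg1, chr17:56122002-56122196, minus strand: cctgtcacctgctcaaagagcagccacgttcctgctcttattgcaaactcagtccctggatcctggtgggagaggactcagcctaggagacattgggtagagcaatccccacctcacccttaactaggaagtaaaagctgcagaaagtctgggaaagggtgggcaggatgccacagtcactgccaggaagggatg
Serpina3n, chr12:104406458-104406707, plus strand: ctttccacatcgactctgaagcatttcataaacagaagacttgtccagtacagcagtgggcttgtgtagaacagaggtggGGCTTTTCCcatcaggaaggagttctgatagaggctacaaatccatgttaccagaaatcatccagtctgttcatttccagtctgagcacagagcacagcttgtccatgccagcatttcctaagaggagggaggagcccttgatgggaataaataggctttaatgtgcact
Lyz1, chr10:117292869-117293118, minus strand: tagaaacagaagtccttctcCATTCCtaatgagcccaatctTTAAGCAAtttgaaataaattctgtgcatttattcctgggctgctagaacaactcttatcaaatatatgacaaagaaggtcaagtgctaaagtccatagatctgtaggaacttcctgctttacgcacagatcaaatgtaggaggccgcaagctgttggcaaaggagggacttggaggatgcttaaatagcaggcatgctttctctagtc

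The Serpina3n promoter held 1 match to the NF-kappaB letters, which 4.93% of 32851 RefSeq promoter windows hold. The Lyz1 promoter held 1 match to the C/EBP letters and 1 to the TEAD letters, found in 9.56% and 12.6% of windows. No match to any of the 4 motifs was found in the Lrg1 window, and none to the STAT letters, held by 7.02% of windows, in any of the 3. These motifs do not overlap one another in the sequences shown, and a match or its absence in so short a window is a description of letters alone.

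Sftpd encodes surfactant protein D, a collectin that binds sugars on microbes at the lung and gut surface. The gene (ENSMUSG00000021795) lies on chromosome 14 at 41172214 to 41185149, minus strand. It was at 227.1 and 252.6 normalized counts for WT, a narrow range, and at 2459 and 1180.2 for Lats1/2 KO. The means were 239.9 ± 17.98 and 1820 ± 904 (SD, n = 2), or 2.92 ± 0.38 (SE) as a log2 fold change; it was 2.30, a fold of 4.92, without Lats1/2 KO replicate 1. The collectin genes Mbl1 and Sftpa1 lie within 50 kb of Sftpd and had no row, and neither did the other 4 annotated neighbours in that distance.

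Cd14 encodes the LPS co-receptor carried by macrophages and monocytes and by some epithelial cells. The gene (ENSMUSG00000051439) lies on chromosome 18 at 36725067 to 36726798, minus strand. It was at 249.9 and 219.5 normalized counts for WT and at 570.4 and 563.5 for Lats1/2 KO. Replicates lay closer together than for any of the other 5 genes within Lats1/2 KO, where the libraries differed 1.01-fold. The means were 234.7 ± 21.5 and 567.0 ± 4.87 (SD, n = 2), or 1.27 ± 0.21 (SE) as a log2 fold change, and with 1 library left out in turn it stayed between 1.18 and 1.37. Of 16 macrophage and monocyte markers only Aif1 had a row, and it went the other way, from 87.1 and 178.7 normalized counts for WT to 50.7 and 42.2 for Lats1/2 KO. The fall of Aif1 was 2.86-fold, or 1.87-fold without WT replicate 2, and did not pass on the TMM scale (edgeR adjusted p = 0.0782). None of the 13 neutrophil markers had a row, so their levels are unknown, and the part of myeloid cells in the Cd14 level was not tested.

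Dmbt1 encodes a large secreted scavenger receptor cysteine-rich glycoprotein that aggregates bacteria, and it was listed here also as a marker of neck and antral gland mucous cells. The gene (ENSMUSG00000047517) lies on chromosome 7 at 131032053 to 131121630, plus strand. Its counts were of another order than those of the other 5 genes: 25574 and 39685 for WT and 98164 and 72293 for Lats1/2 KO, or 32273, 43770, 88880 and 56503 normalized counts. The groups came closest for this gene, with the lower Lats1/2 KO library 1.29 times the higher WT library. The means were 38021 ± 8129 and 72691 ± 22894 (SD, n = 2), or 0.93 ± 0.27 (SE) as a log2 fold change; it ranged from 0.57 without Lats1/2 KO replicate 1 to 1.23 without Lats1/2 KO replicate 2. The other 8 markers of neck and antral gland mucous cells had no row, so their levels are unknown. GENCODE M21 places Dmbt1 within the long span of Fgfr2 on the opposite strand, with no exon base in common; Fgfr2, named after its values were seen, had 2.46-fold more normalized counts in Lats1/2 KO than in WT, from 220.7 ± 73.4 to 542.5 ± 55.2 (SD, n = 2).

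Lyz1 encodes the lysozyme of intestinal Paneth cells, an enzyme that cuts bacterial cell walls. The gene (ENSMUSG00000069515) lies on chromosome 10 at 117287797 to 117292868, minus strand. It had 25 and 68 counts for WT and 229 and 240 for Lats1/2 KO, or 31.5, 75.0, 207.3 and 187.6 normalized counts. Both Lats1/2 KO libraries were close together, while the WT libraries differed 2.38-fold. The means were 53.3 ± 30.7 and 197.5 ± 14.0 (SD, n = 2), or 1.88 ± 0.48 (SE) as a log2 fold change, which was 2.64, a fold of 6.24, without WT replicate 2 and 1.40 without WT replicate 1. None of the other 10 Paneth cell markers had a row, so their levels are unknown. Of 13 intestinal epithelial markers 3 had a row and went the other way: Fabp2, a fatty acid binding protein of enterocytes, fell 4.77-fold, Vil1, which encodes villin of the brush border, 2.37-fold and Clca1, a secreted protein of goblet cells, 2.06-fold. Clca1 stood at 363797 and 374630 normalized counts for WT, within the range of the surface mucous marker Muc5ac (267960 and 390257). Whether Clca1 marks intestinal cells in this tissue was not tested, nor was the part of intestinal cells in the Lyz1 level.

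Lyz1 has a near-identical neighbour on the same strand, the macrophage lysozyme gene Lyz2, 5476 bases away, which had no row. Their coding sequences are both 447 bases and identical at 95.1% of positions, with 22 differences. The stretch with most differences, bases 61 to 120 of the coding sequence (GENCODE M21), is shown to let the 2 copies be compared, with the 9 differing bases in capitals.
Lyz1: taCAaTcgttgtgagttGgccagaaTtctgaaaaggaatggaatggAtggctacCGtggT
Lyz2: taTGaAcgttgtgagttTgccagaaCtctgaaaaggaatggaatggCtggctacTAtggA
Of the 1189 windows of 75 bases, the read length, in the longest Lyz1 transcript, 74 (6.22%) also occur in Lyz2, and reads from these could be assigned to either gene. The share of Lyz1 counts that this affects is unknown, since it depends on the level of Lyz2 and on how reads with several matches were counted. The same comparison with all GENCODE M21 transcripts gave 1.46% of windows shared for Serpina3n, with other members of its serpin cluster, and 0 windows for Lrg1, Sftpd, Cd14 and Dmbt1.

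Per kilobase of exon, which allows levels of different genes to be compared, Dmbt1 stood far above the others in every library, at 5388 ± 1152 normalized counts per kb in WT and 10301 ± 3244 in Lats1/2 KO (SD, n = 2). In WT the order below it was Cd14 (135.5 ± 12.4), Sftpd (99.2 ± 7.44), Serpina3n (59.8 ± 18.9), Lyz1 (42.2 ± 24.3) and Lrg1 (41.5 ± 19.9). The libraries of Cd14 and Sftpd did not overlap those of the gene below, whereas Serpina3n, Lyz1 and Lrg1 overlapped one another. In Lats1/2 KO the order below Dmbt1 was Sftpd (752.9 ± 374), Lrg1 (555.8 ± 111), Serpina3n (440.9 ± 170), Cd14 (327.3 ± 2.81) and Lyz1 (156.3 ± 11.1). There, neighbours from Sftpd to Cd14 overlapped in their libraries and only Lyz1 lay apart, below all of them. Lrg1 thus moved from the lowest mean per kb of the 6 in WT to the third highest in Lats1/2 KO.

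The spread between libraries of 1 genotype differed among the 6 genes. It is given as a description, since it enters the p-values by which rows came into the table. Sftpd, Serpina3n and Dmbt1 were higher in Lats1/2 KO 1 than in Lats1/2 KO 2, by 2.08-fold, 1.75-fold and 1.57-fold, and Lrg1 was 1.33-fold higher in Lats1/2 KO 2. Over the 2670 rows with a base mean (the authors' mean of normalized counts over all libraries) of at least 50, the median difference between these libraries was 1.14-fold, and 97.2%, 94.4% and 91.4% of the rows differed by less than Sftpd, Serpina3n and Dmbt1. Cd14 stood at the other end, with 4.42% of rows differing by less. Between the WT libraries the widest gaps were those of Lyz1, higher in WT 2, and Lrg1, higher in WT 1, wider than 96.1% and 94.0% of rows. Both genes had the lowest WT means of the 6, with 25 and 68 counts for Lyz1 and 62 and 35 for Lrg1. The rows compared were not matched for count level, and the part of low counts in these gaps was not tested. Each ratio rests on 1 pair of libraries.

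**Figure D2:**
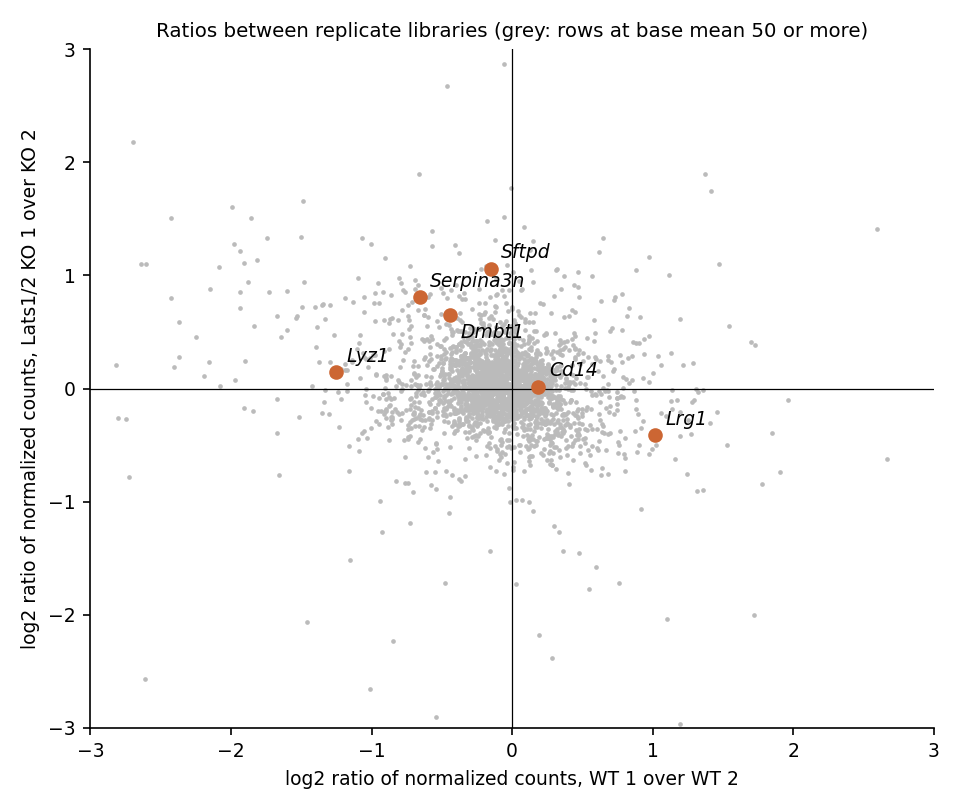
Log2 ratio of normalized counts between the WT libraries (horizontal) and between the Lats1/2 KO libraries (vertical) for the 6 genes (orange) and the 2670 rows with a base mean of at least 50 (grey; 13 lie outside the axes). Sftpd, Serpina3n and Dmbt1 lie above the horizontal line, higher in Lats1/2 KO 1; Lyz1 and Lrg1 lie at opposite sides along the WT axis, and Cd14 is near the centre.

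**Figure D3:**
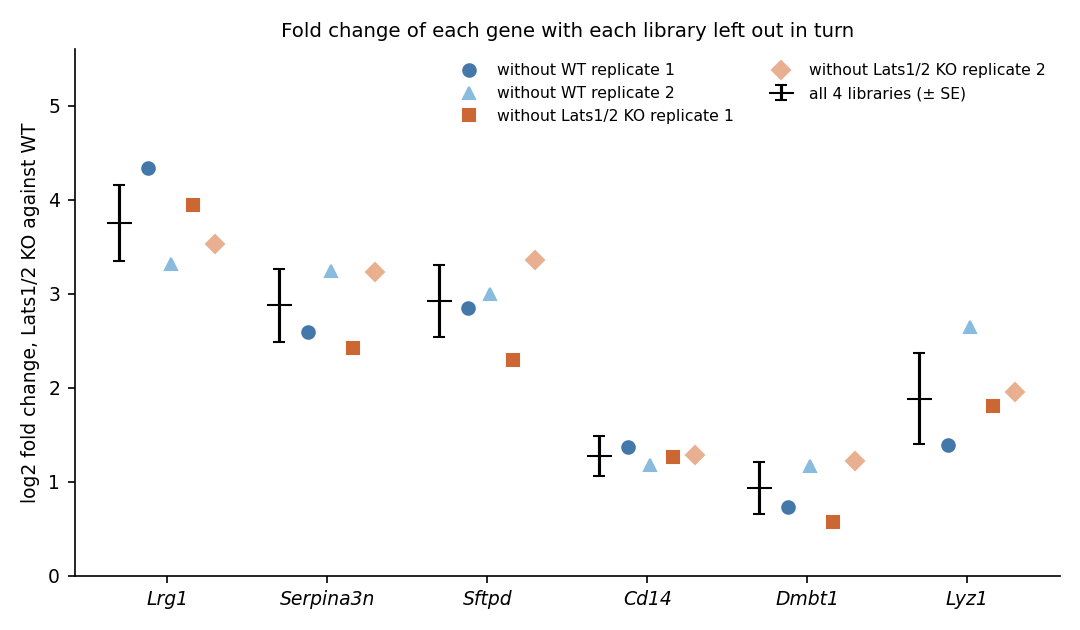
Log2 fold change of each gene, Lats1/2 KO against WT (vertical axis), with all 4 libraries (black, ± SE) and with each library left out in turn (symbols). Values for Cd14 stay between 1.18 and 1.37, while those for Lyz1 run from 1.40 to 2.64 and those for Sftpd from 2.30 to 3.36.

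For each gene the table was searched for the 2 named protein-coding genes with the most similar profile, measured as the root mean square difference of log2(normalized count + 1) over the 4 libraries after centring each gene on its own mean. The closest to Serpina3n were Cdh6 (0.08) and Sftpd (0.20), and Sftpd was in turn closest to Nfe2l3 (0.17) and Serpina3n (0.20), so these 2 defence genes named each other at this pseudocount. The nearest to Cd14 were Lrrc31 (0.01) and Chst4 (0.04), to Dmbt1 Fads1 (0.07) and Npnt (0.12), and to Lyz1 Bub1b (0.10) and Kntc1 (0.12). Lrg1 had no match as close as these, with Nptx2 at 0.28. With a pseudocount of 10, 6 of these 12 pairs remained; Sftpd was still among the 2 nearest to Serpina3n, but Serpina3n was no longer among those of Sftpd, which were Lemd1 (0.09) and Nfe2l3 (0.10), and Cdh6 was lost. All rows had been selected for a group difference and there are 4 libraries, so closeness describes these profiles only.

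The genes around the 6 in the same pathways went both ways. In 9 lists of related genes, 29 of 249 genes other than the 6 had a row (11.6%), 11 higher and 18 lower in Lats1/2 KO. Of the 13138 genes that the authors' p-values imply were tested, 20.6% have a row; how many of the 249 were tested is unknown, so the 2 shares cannot be compared. The share higher was 37.9%, where all rows had 42.9% higher and 57.1% lower, and the median log2 ratio was -0.59, against -0.51 over all rows. Genes with a row had passed the authors' DESeq2 threshold, and rose and fell are used of them in that sense. On a scale set by TMM, which assumes that most rows do not change, log2 fold changes lie a median of 0.36 higher. All 11 that rose still passed edgeR's quasi-likelihood test on that scale and 3 of the 18 that fell did, Lgals9, Jak2 and Tnfrsf1b. With both directions together, 61.2% of all rows passed there, and 99.9% passed with the recovered factors. Because the TMM scale moves fold changes upward, it favours rises over falls, and nothing about these genes is read from the split.

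**Figure D4:**
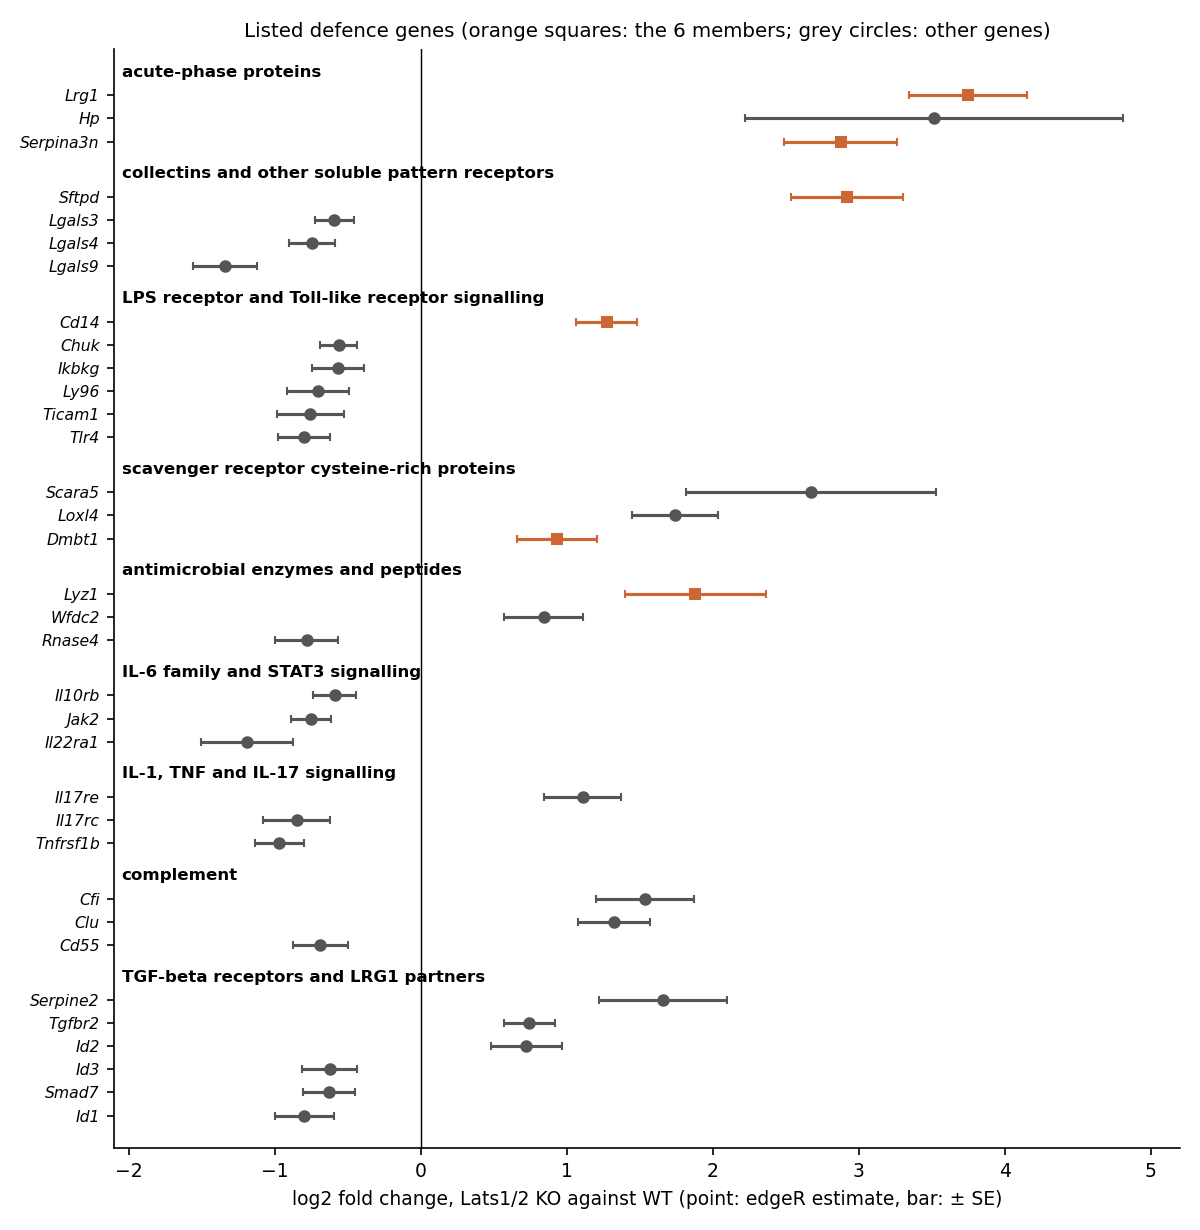
Log2 fold change (horizontal axis, edgeR estimate ± SE over 2 libraries per group) of listed genes in each of 9 lists; orange squares are the 6 genes and grey circles the other genes with a row, without A2m, whose WT counts were 0. All 6 genes lie to the right of 0, as their choice fixed. Beside Cd14 and Sftpd, the other genes of the LPS receptor and soluble receptor lists lie to the left of 0.

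Of 46 acute-phase genes, 4 had a row, Lrg1 and Serpina3n among them, and the other 2 rose with very uneven libraries. Hp, which encodes the haemoglobin-binding protein haptoglobin, was at 7.57 and 23.2 normalized counts for WT and at 24.4 and 333.0 for Lats1/2 KO. Its rise rested on Lats1/2 KO 2: without that library the log2 fold change was 0.65 in place of 3.51, and without Lats1/2 KO replicate 1 and WT replicate 2 it was 4.41 and 4.54. A2m, which encodes the protease inhibitor alpha-2-macroglobulin, had 0 counts in both WT libraries and 126.8 and 14.1 normalized counts for Lats1/2 KO. With 3 counts per WT library taken as the limit that 0 allows, it was at least 19.8-fold higher, or at least 3.97-fold without Lats1/2 KO replicate 1 and at least 35.7-fold without Lats1/2 KO replicate 2. Lrg1 and Hp were thus highest in Lats1/2 KO 2, and Serpina3n and A2m in Lats1/2 KO 1. The 12 hepatocyte markers had no row, so their levels are unknown.

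Among 23 collectins and other soluble pattern receptors, Sftpd was the 1 higher gene and 3 galectins, which bind galactose-containing sugars, fell. Lgals9 went from 40762 ± 8725 to 16061 ± 2839 normalized counts (SD, n = 2), Lgals4 fell 1.68-fold and Lgals3 1.51-fold. Lgals4 and Lgals3 did not pass on the TMM scale (edgeR adjusted p = 0.0571 and 0.133).

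In the list of LPS and Toll-like receptor signalling, 6 of 43 genes had a row, and Cd14 was the 1 higher gene. Tlr4, the signalling receptor for LPS, was at 2926 and 2966 normalized counts for WT and at 1925 and 1454 for Lats1/2 KO, a 1.74-fold fall (adjusted p = 0.00199 in the authors' deposited DESeq2 table). Ly96, which encodes its partner MD-2, fell 1.63-fold, from 657.2 ± 20.0 to 403.6 ± 73.3 (SD, n = 2). Ticam1, an adaptor of TLR3 and TLR4, fell 1.69-fold and Chuk, a kinase that activates NF-kappaB, 1.48-fold. The co-receptor and the receptor complex it serves therefore had opposite directions, and their difference was not tested because Cd14 was chosen on this contrast. On the TMM scale none of Tlr4, Ly96, Ticam1 and Chuk passed (edgeR adjusted p = 0.0636, 0.202, 0.146 and 0.186). That scale moves fold changes upward and so works against falls, for Tlr4 from -0.80 to -0.44 as log2, and not passing there does not show an absent fall.

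Scavenger receptor cysteine-rich proteins had 3 of 17 genes with a row, all higher. Beside Dmbt1 these were Loxl4, a matrix-crosslinking lysyl oxidase, which went from 113.6 and 104.8 normalized counts for WT to 297.9 and 432.2 for Lats1/2 KO, and Scara5, a ferritin receptor. Scara5 was at 18.9 and 8.82 against 34.4 and 141.5, so most of its rise came from Lats1/2 KO 2, without which its log2 fold change was 1.32 in place of 2.67; without Lats1/2 KO replicate 1 and WT replicate 1 it was 3.35 and 3.31.

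Of 39 antimicrobial enzymes and peptides, Lyz1 and 2 others had a row. Wfdc2, a secreted protease inhibitor of epithelia, rose 1.79-fold, from 2360.3 ± 884 to 4229 ± 487 normalized counts (SD, n = 2). Rnase4, a ribonuclease of the angiogenin family, fell 1.72-fold, and its fall did not pass on the TMM scale (edgeR adjusted p = 0.118).

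Of signalling genes upstream of acute-phase transcription, 12% (IL-6 family and STAT3) and 14.3% (IL-1, TNF and IL-17) had a row. These shares lie near the 11.6% over all lists of related genes, and nothing is read from them. In the list of the IL-6 family and STAT3, 3 of 25 had a row and all fell: Il22ra1, the epithelial receptor chain for IL-22, 2.28-fold, the kinase gene Jak2 1.69-fold and the shared receptor chain gene Il10rb 1.51-fold. Il22ra1 stood at 798.8 and 1485 normalized counts for WT and 513.4 and 488.5 for Lats1/2 KO. Of these 3, Il22ra1 and Il10rb did not pass on the TMM scale (edgeR adjusted p = 0.0564 and 0.214). Of 21 genes of IL-1, TNF and IL-17 signalling, Tnfrsf1b and Il17rc fell 1.96-fold and 1.80-fold, the latter not called with TMM (edgeR adjusted p = 0.0901), and Il17re, the receptor chain for IL-17C, rose from 250.1 ± 12.8 to 539.1 ± 144 (SD, n = 2).

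Complement genes had 3 of 23 with a row. Cfi, the protease that inactivates C3b, rose 2.90-fold, from 1191 and 766.5 normalized counts for WT to 3587 and 2095 for Lats1/2 KO, and Clu, which encodes the chaperone and complement inhibitor clusterin, rose 2.501-fold. Both were higher in Lats1/2 KO 1 than in Lats1/2 KO 2, by 1.71-fold and 1.41-fold, as were Sftpd, Serpina3n and Dmbt1. Cd55, a membrane inhibitor of complement, fell 1.61-fold (edgeR adjusted p = 0.147 on the TMM scale).

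For TGF-beta receptors and genes tied to LRG1, 6 of 18 had a row, 3 higher and 3 lower. The receptor gene Tgfbr2 rose 1.67-fold and the protease inhibitor gene Serpine2 3.15-fold. The signalling targets Id1, Id3 and Smad7 fell 1.74-fold, 1.54-fold and 1.55-fold, and none of these 3 passed on the TMM scale (edgeR adjusted p = 0.07997, 0.197 and 0.197). Id2, of the same family as Id1 and Id3 and named after its values were seen, rose 1.65-fold and passed on that scale (edgeR adjusted p = 0.0150). The TMM scale moves fold changes upward, for Id2 from 0.72 to 1.08 and for Id1 from -0.80 to -0.43 as log2. It thus favours rises over falls, and nothing is read from which of these genes passed.

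By position, the 6 genes lie on 6 chromosomes. Of the annotated genes within 50 kb, 2 of 7 around Lrg1, Tnfaip8l1 and Chaf1a, and 1 of 4 around Dmbt1, Fgfr2, had a row, and all 3 were higher in Lats1/2 KO, the first 2 named after their values were seen. Around Cd14, Serpina3n, Sftpd and Lyz1 none of 9, 3, 6 and 3 neighbours had a row. Over all genes implied as tested 20.6% have a row, and 42.9% of rows were higher in Lats1/2 KO. How many of the neighbours were tested is unknown, and nothing about position is read from these counts.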

How the data were processed

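RNA-seq counts of 4 libraries were used. The submitters' processing notes name HTSeq, DESeq2, TopHat2 2.1.1 and the build GRCm38; no source used here gives settings or whether counting used strand. Per the file headers, the authors deposited whole-number counts per gene and library, a base mean (a signal, the mean normalized count), a log2 fold change, its standard error and a Wald statistic (scores), and p-values. The largest deposited adjusted p is 0.05.

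The authors' size factors, recovered from base means and counts, were 0.792, 0.907, 1.10 and 1.28 (rebuilt base means deviated by at most 0.0119%). edgeR 4.0.16 (quasi-likelihood test, genotype, filterByExpr, Benjamini-Hochberg at 0.05) was fitted on all 2701 rows with these factors and tested on simulated data. SE is the absolute log2 fold change over the root of F. TMM assumes unchanged rows, which this selected table lacks, so it is an alternative. DESeq2 1.42.0 was another. GENCODE M21 matched 2698 rows.

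Members and lists were chosen with earlier results of these data known. Named are the 6 genes, up to 5 listed genes per list by smallest deposited adjusted p, and the 2 closest profiles per gene, of which 1 is not reported here, plus exceptions stated. Replicate origin is not given, so the spread may be technical, and 2 libraries per group limit precision; replicates differed by more than sampling noise (WT 114 and Lats1/2 KO 108, as chi-square over its degrees of freedom).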

Additional observations from a re-analysis of the deposited data

How the results depend on the processing

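The 6 genes were higher in Lats1/2 KO under each setting, which their choice and groups that do not overlap had fixed, so this is no sign of stability. With the recovered factors edgeR called 2698 of 2700 rows; it called 1652 with TMM and 1589 with DESeq2 factors computed on the rows, which raise log2 fold changes by 0.36 and 0.41, and from 5 (without Lats1/2 KO replicate 2; 1503 without Lats1/2 KO replicate 1) to 2454 with a library left out; the cause was not tested. The labels share the numbers 1 and 2 but state no pairing: same-numbered libraries deviated together at r = -0.16 across genes, the replicate block gave 2535 calls and the crossed block, chosen after seeing the data, 2660. Of the 11 higher and 18 lower genes of the surrounding lists, 6 and 10 have a deposited adjusted p of at most 0.01. With TMM (chosen after seeing the data), 11 and 3 pass, on a scale that raises fold changes and so favours rises. Groups do not overlap for any of the 29, so leaving out a library could not turn a direction. The depth of whole libraries is unknown, since genes outside the table are not analysed here.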
